A study of Drosophila melanogaster with 6 samples.

Results

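The genes of the 26S proteasome were examined in Drosophila melanogaster larval muscle lysates, with and without knockdown of tmod in muscle. They were taken by symbol from the deposited table (Prosalpha1 to Prosalpha7, Prosbeta1 to Prosbeta7, Rpn and Rpt1 to Rpt6, with any suffix), which gave 47 of its 17807 genes. Of these, 32 carried the plain subunit name, 14 of them in the 20S core, 10 in the base of the 19S regulatory particle and 8 in its lid. The other 15 carried a suffix such as R or T and are paralogs of a subunit. The genes were taken by name and not by a measured value, although earlier results of these data were known when the members were chosen. The 32 genes are spread over the genome, with 4 on X, 4 on 2L, 10 on 2R, 5 on 3L and 9 on 3R.

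The 26S proteasome is the protease that degrades ubiquitin-tagged proteins. Its 20S core is a barrel of alpha and beta rings with the proteolytic sites inside, on the beta subunits. The 19S particle caps the barrel: its base holds a ring of Rpt ATPases that unfold substrates together with large Rpn scaffolds and ubiquitin receptors, and its lid carries the deubiquitinase Rpn11. In muscle the proteasome turns over sarcomere proteins, and in Drosophila several of the suffixed paralogs are known from the testis, where they replace a general subunit in developing sperm.

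There were 2 groups of 3 libraries. The tmodRNAi animals were UAS-dcr2;;Dmef2-Gal4>UAS-tmodRNAi, and the control animals, mCherryRNAi, were UAS-dcr2;;Dmef2-Gal4>UAS-mCherryRNAi, so that both carried the Dmef2-Gal4 driver, which acts in muscle, and the dcr2 transgene, which enhances RNA interference. mCherry is a fluorescent marker protein with no gene in flies. Larvae were late in the third instar, at about 90 h, each library was a pool of 7 to 10 larvae, and the lysate was muscle enriched and therefore not muscle alone (1 label names the tissue as adult). The labels call the replicates biological but do not say that they came from separate crosses, so p-values measure the spread between these pools. The series title places the comparison in a study of how larval muscle degenerates when Tropomodulin is reduced.

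Values are normalized counts, that is, reads per gene divided by 1 factor per library. Libraries held between 83824273 and 110151028 recovered reads, and the lowest plain-named subunit still had 4281 reads in a library, so the spread between pools and not counting error set the precision. The targeted gene, tmod, had 70528, 92366 and 75101 normalized counts in mCherryRNAi replicates 1 to 3, against 13993, 13734 and 12980 in tmodRNAi replicates 1 to 3. Knockdown libraries thus held 17.1% of the mean tmod level of the controls (log2 difference -2.54, limma adjusted p = 0.0045; -2.62 and 0.0001 without mCherryRNAi replicate 1, the control that stood apart). The direction held without any 1 library, and the adjusted p was 0.087, 0.080 and 0.10 without mCherryRNAi replicate 3, tmodRNAi replicate 2 or tmodRNAi replicate 3 (limma). That control, mCherryRNAi replicate 1, correlated across genes with tmodRNAi replicates 1 to 3 at r = 0.975, 0.961 and 0.971, and with mCherryRNAi replicates 2 and 3 at 0.956 and 0.969. Values without it are given for the counts of subunits, pathway genes and markers that passed and for each tested paralog, and single subunits without it stand in the plot of fold changes.

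The transcripts of the 32 plain-named subunits were lower in tmodRNAi, nearly as one block. Each was lower in every tmodRNAi library than in every control library, where 26.4% of the 10969 tested genes did not overlap in that direction. In tmodRNAi the subunits stood at 47.6% to 57.5% of their control means. All 32 passed the threshold as lower (limma with Benjamini-Hochberg adjustment over all tested genes, adjusted p from 0.0306 to 0.0309), against 12.9% of all tested genes, and none was higher. The median log2 fold change of the 32 was -0.95 (range -1.04 to -0.79), beside 0.02 for all tested genes.

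The libraries ordered the subunits in a regular way. Relative to the control mean, the median subunit stood at -0.34, 0.18 and 0.17 on the log2 scale in mCherryRNAi replicates 1 to 3, and at -0.83, -1.03 and -0.99 in tmodRNAi replicates 1 to 3. mCherryRNAi replicate 1 was thus the lowest control, and this held for each of the 32 subunits, whereas it was the lowest control for 44.1% of all tested genes. tmodRNAi replicate 1 was the highest of the 3 knockdown libraries for 31 of the 32, against 36.1% of all tested genes.

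**Figure D1:**
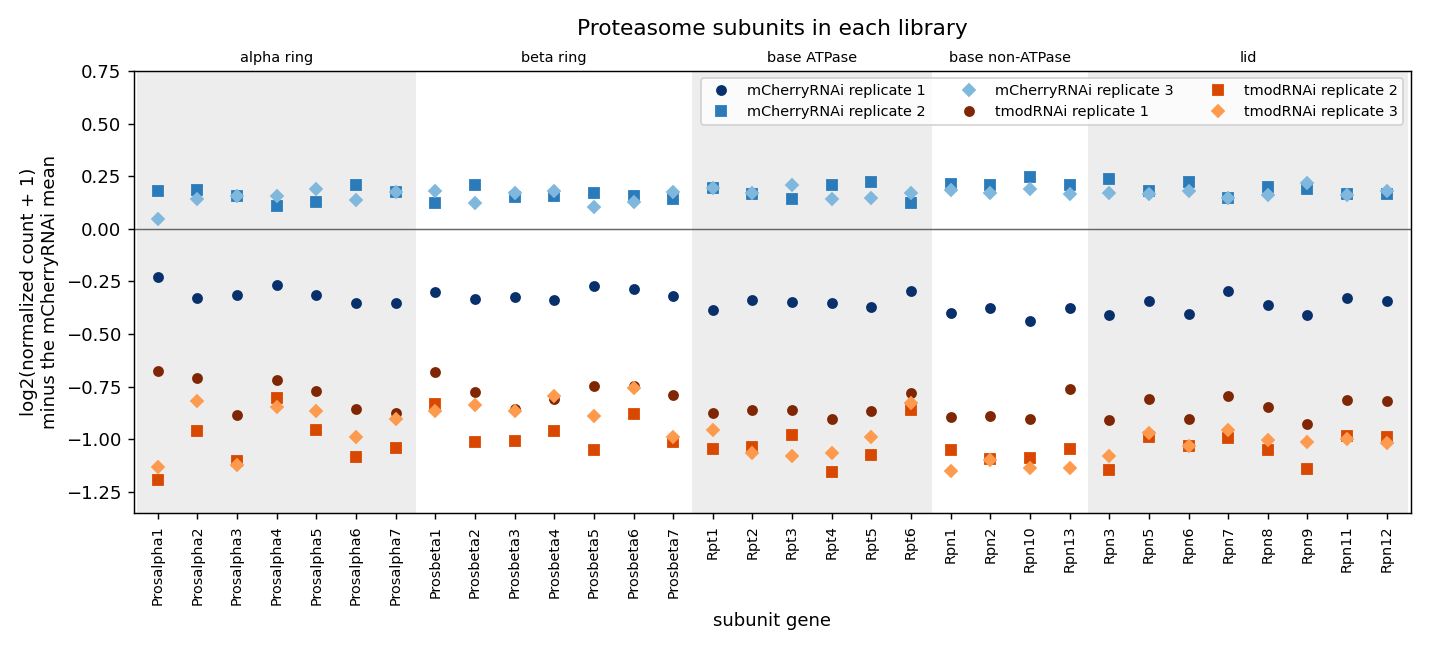
Level of each of the 32 plain-named subunits (x axis, grouped by ring, base and lid) in each of the 6 libraries, as log2(normalized count + 1) minus the mCherryRNAi mean (y axis). Each point is 1 library; mCherryRNAi replicates 2 and 3 lie above 0, mCherryRNAi replicate 1 lies below 0, and the 3 tmodRNAi libraries lie lowest for every subunit.

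Summed over the 32 genes, subunit transcripts made up 0.939%, 1.58% and 1.54% of normalized counts in mCherryRNAi replicates 1 to 3. They made up 0.675%, 0.587% and 0.606% in tmodRNAi replicates 1 to 3. The median subunit lay at percentiles 95.5 to 96.8 of tested genes by normalized count in the control libraries and at percentiles 93.7 to 94.3 in the tmodRNAi libraries. The subunits thus stayed among the abundant transcripts in both groups.

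The calls depended on which libraries were included. Without mCherryRNAi replicate 1 the 32 subunits passed again, with a median log2 fold change of -1.12 and adjusted p-values from 0.00023 to 0.0031 (limma, where 25.0% of all tested genes were called lower). When any other library was left out instead, 0 of the 32 passed (limma, adjusted p from 0.054 to 0.12), although the unadjusted p was under 0.05 for all 32 in each of those 5 fits. In the same 5 fits between 0 and 59 of the 10969 tested genes passed, so that the count of 0 says nothing particular to the subunits. Between 3227 and 4078 of the 10969 tested genes had an unadjusted p under 0.05 in these fits (limma). Against mCherryRNAi replicate 1 alone, the tmodRNAi mean of the median subunit differed by -0.61 on the log2 scale, which has no replicate check. Tests of the whole reads with edgeR (quasi-likelihood) or DESeq2 also called the 32 subunits lower, against 12.9% and 21.1% of all tested genes.

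The markers of muscle were ordered the other way across the same libraries. The 15 listed muscle genes, among them Mhc, Mlc2, up and sls, summed to 8262068, 2674830 and 3372264 normalized counts in mCherryRNAi replicates 1 to 3, against 12584654, 13065124 and 14153730 in tmodRNAi replicates 1 to 3. All 15 were higher in every tmodRNAi library than in every control, where 25.0% of all tested genes did not overlap in that direction. Of the 15, 8 passed as higher (limma, against 10.9% of all tested genes). Without mCherryRNAi replicate 1, which was the highest control for all 15, 15 passed as higher, against 2464 of the 10969 tested genes (limma). With the mean log2 level of these markers as a covariate, 0 of the 32 subunits passed (limma, adjusted p from 0.33 to 0.51, 24 with an unadjusted p under 0.05), where 0.0456% of all tested genes were called in either direction. In that fit 1302 of the 10969 tested genes had an unadjusted p under 0.05 (limma). The median log2 fold change of the subunits in that fit was -0.37, and each of the 32 was negative (range -0.57 to -0.29). The covariate itself did not overlap between groups, with 17.27 to 18.68 in the controls and 19.20 to 19.37 in tmodRNAi. The fit therefore cannot separate it well from the group, and these estimates are a description. In bulk lysates, fewer cells of a type and less RNA per cell cannot be told apart, and the part of tissue composition in the subunits' difference was not tested further.

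**Figure D2:**
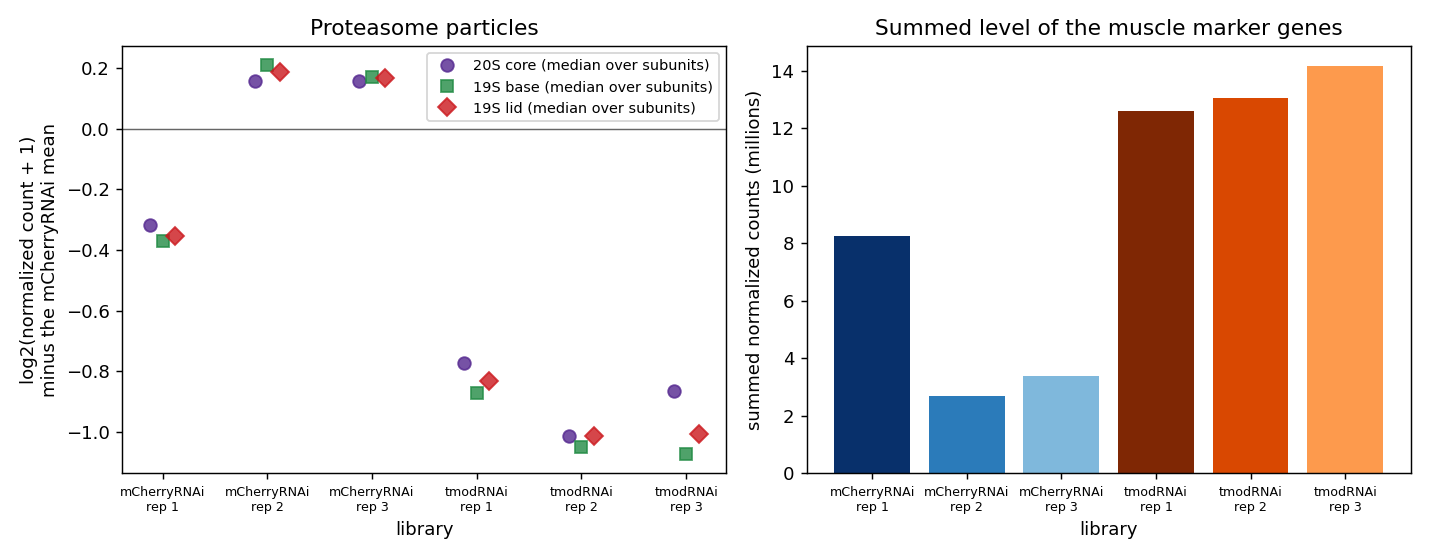
Left, the median over core, base and lid subunits in each library, as log2(normalized count + 1) minus the mCherryRNAi mean. Right, the summed normalized counts of the 15 muscle marker genes in the same 6 libraries (1e6 on the axis); mCherryRNAi replicate 1, with 8262068, is the lowest control for the subunits and the highest for the muscle markers.

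The other marker lists were less regular. Their counts stand beside 10.9% of all tested genes that passed as higher and 12.9% as lower (limma). Without mCherryRNAi replicate 1 these were 2464 and 2739 of the 10969 tested genes. The 8 fat body genes summed to between 167908 and 269102 normalized counts in the controls, against between 306314 and 983907 in tmodRNAi, and 3 of the 7 tested passed as higher (limma, against 10.9% of all tested genes; 3 without mCherryRNAi replicate 1). The 9 epidermal genes summed to 14317353 normalized counts in mCherryRNAi replicate 1, 5488577 and 7424693 in the other controls, and between 10031237 and 12174563 in tmodRNAi; 1 passed as higher and 1 as lower, and 3 and 2 without mCherryRNAi replicate 1. The 6 hemocyte genes summed to between 113085 and 168179 in the controls and between 172079 and 199431 in tmodRNAi. Single hemocyte genes differed in direction: He and eater passed as lower (limma, log2 differences of -0.47 and -0.56, adjusted p = 0.031 each) and Ppn as higher (1.42, adjusted p = 0.039), and the median of the list was 0.07; without mCherryRNAi replicate 1, 2 passed in each direction. The 7 neuronal genes summed to between 8987 and 13441 and between 13862 and 18036 in the same order, and 1 passed as higher, or 3 without mCherryRNAi replicate 1. The 6 salivary glue genes ranged from 110 to 814 in the controls and from 247 to 3263 in tmodRNAi, and 0 passed with or without that library (limma). The part of these cell types in the subunits' difference was not tested.

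In the 20S core, the alpha ring forms the gate through which substrates enter. Its largest fall was that of Prosalpha3, with 27254, 37841 and 37783 normalized counts in the controls, against 18385, 15785 and 15551 under tmodRNAi. The tmodRNAi values lay together, well under the lowest control (log2 difference -1.04 with an SE of 0.16). Prosalpha4 fell least, from 27834, 36064 and 37237 normalized counts in the controls to 20331, 19176 and 18610 (log2 difference -0.79 with an SE of 0.13). Prosalpha6, the subunit with the highest level per length, had 34634, 51093 and 48620 normalized counts in the controls, against 24395, 20815 and 22217 under tmodRNAi. All 7 alpha genes passed as lower, with a median log2 fold change of -0.94.

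The beta ring holds the catalytic subunits, and these were lower by similar amounts. Prosbeta1, which provides the caspase-like activity, had 16731, 22438 and 23343 normalized counts in the controls, against 12854, 11594 and 11324 under tmodRNAi (log2 difference -0.79 with an SE of 0.14), the smallest fall of the ring. Prosbeta2, which provides the trypsin-like activity, fell from 27480, 39970 and 37702 normalized counts to 20226, 17132 and 19382 (log2 difference -0.87). Prosbeta5, which provides the chymotrypsin-like activity, fell from 35638, 48371 and 46172 normalized counts to 25633, 20731 and 23245 (log2 difference -0.90). In these 3 genes, as in the ring as a whole, mCherryRNAi replicate 1 lay between the other controls and the knockdown libraries. Prosbeta7, a structural beta subunit, fell most in the ring, from 31592, 43467 and 44432 normalized counts to 22770, 19492 and 19841 (log2 difference -0.93 with an SE of 0.16). All 7 beta genes passed as lower, with a median log2 fold change of -0.87.

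The base of the regulatory particle had a median log2 fold change of -0.98 over its 10 genes, all of which passed as lower. Among the ATPases, Rpt4 fell most, from 34624, 51129 and 48730 normalized counts in the controls to 23630, 19848 and 21100 in tmodRNAi (log2 difference -1.04 with an SE of 0.17). Rpt6 fell least, from 25400, 33939 and 35150 to 18123, 17161 and 17540 normalized counts (log2 difference -0.82 with an SE of 0.14). The 3 tmodRNAi values of Rpt6 were nearly equal, and its control values were not.

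The other subunits of the base, Rpn1, Rpn2, Rpn10 and Rpn13, were close to its ATPases in size of change. The median log2 difference was -0.97 for the 6 ATPases and -1.03 for these 4 genes, and no test of that gap was made. Rpn10, an intrinsic ubiquitin receptor, had 28277, 45382 and 43733 normalized counts in the controls, against 20438, 17988 and 17411 under tmodRNAi (log2 difference -1.04 with an SE of 0.20). Rpn13, a further receptor that is held by the scaffold Rpn2, had 26489, 39689 and 38475 in the controls, against 20243, 16627 and 15626 under tmodRNAi (log2 difference -0.98 with an SE of 0.19). Rpn1, a large scaffold that also binds ubiquitin, had 54648, 83527 and 82000 in the controls, against 38732, 34768 and 32399 under tmodRNAi (log2 difference -1.03 with an SE of 0.19). For each of the 3 genes, mCherryRNAi replicate 1 was nearer to tmodRNAi replicate 1 than to the other controls.

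The lid had a median log2 fold change of -0.96, and all 8 of its genes passed as lower. Rpn11, the metalloprotease that removes ubiquitin chains as substrates enter, fell from 29288, 41343 and 41214 normalized counts to 20975, 18606 and 18396 (log2 difference -0.93 with an SE of 0.16). Rpn3, a scaffold of the lid, fell most, from 32599, 51073 and 48740 normalized counts to 23089, 19562 and 20472 (log2 difference -1.04 with an SE of 0.19). Rpn7 fell least, from 27461, 37338 and 37356 to 19410, 16947 and 17396 normalized counts (log2 difference -0.91 with an SE of 0.15). In the lid as in the base and the core, the groups did not overlap for any subunit.

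**Figure D3:**
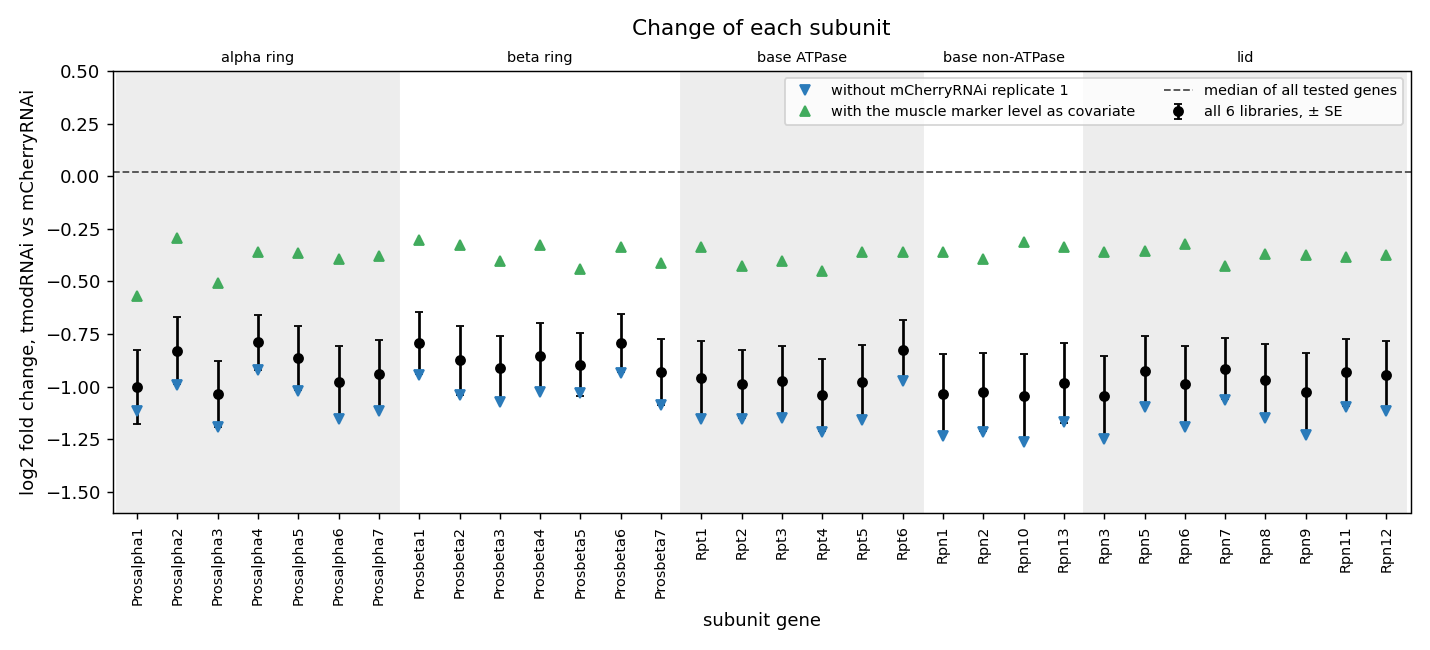
Log2 fold change of each plain-named subunit, tmodRNAi against mCherryRNAi, on the log2(normalized count + 1) scale. Circles with bars are the limma estimates ± SE from all 6 libraries, downward triangles the estimates without mCherryRNAi replicate 1, upward triangles those with the muscle marker level as a covariate, and the dashed line the median of all tested genes at 0.02; all 3 kinds of estimate lie below 0 for all 32 subunits.

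The subunits differed little among themselves. The SD of the log2 fold change was 0.08 over the 32 subunits, beside 1.04 over all tested genes. The standard error of a single subunit was 0.13 to 0.20. That error includes variation between libraries that the subunits share, so it is no yardstick for differences between subunits. Of the 32, 27 lay within 0.1 of the subunits' median, a window that held 2.13% of all tested genes. After the median profile of the 32 was subtracted in each library, the typical subunit varied across libraries with an SD of 0.06 on the log2 scale, against 0.56 before, and Prosalpha1 varied most, with 0.14. Across the 6 libraries the 496 pairs of subunits correlated at r of at least 0.95, with a median of 0.996. All pairs share the same 6 libraries and the same difference between groups, so these correlations are a description.

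A small difference was visible between the particles. The median log2 fold change was -0.94 in the alpha ring and -0.87 in the beta ring, beside -0.98 in the base and -0.96 in the lid. With the muscle covariate the medians were -0.37 in the core, -0.36 in the base and -0.37 in the lid. Of the 14 core subunits, 12 had a smaller fall than the median base subunit, and 9 had a smaller fall than any lid subunit, although the ranges overlapped (-1.04 to -0.79 in the core, -1.04 to -0.82 in the base and -1.04 to -0.91 in the lid). Set against the core within each library, the median level per length of the base was 0.820, 0.892 and 0.866 of the core's in mCherryRNAi replicates 1 to 3, against 0.812, 0.775 and 0.769 in tmodRNAi replicates 1 to 3. For the lid these ratios were 0.821, 0.869 and 0.847 in the controls, against 0.806, 0.784 and 0.788 under tmodRNAi. Both ratios were lower in every tmodRNAi library than in every control, with a narrow gap between mCherryRNAi replicate 1 and tmodRNAi replicate 1, and no test was made of these ratios over members. The extremes show the same, by their choice: Rpn3 stood at 1.17, 1.42 and 1.31 times the normalized counts of Prosalpha4 in the controls and at 1.14, 1.02 and 1.10 times in tmodRNAi.

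Levels were then compared between subunits per kilobase of annotated exon. In the controls the 32 subunits ranged from 10845 ± 1532 normalized counts per kb for Prosalpha1 to 41853 ± 8295 (SD, n = 3) for Prosalpha6, with a median of 28458. Leaving Prosalpha1 aside, the lowest was Rpn13 with 20864 ± 4364, so that the other 31 lay within 2.01-fold of each other. The 7 highest levels per length were all of core subunits, led by Prosalpha6, Prosbeta5 (38098 ± 5976) and Prosalpha3 (35244 ± 6265), and these neighbours in the order differed by less than their SDs. Core subunits had a median of 30574 per kb in the controls, against 16753 under tmodRNAi, the base 26459 and 13031, and the lid 25751 and 13129. The order of the subunits was largely kept in tmodRNAi, where the rank changed by at most 3 places for 24 of the 32 and by at most 8 places for any.

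**Figure D4:**
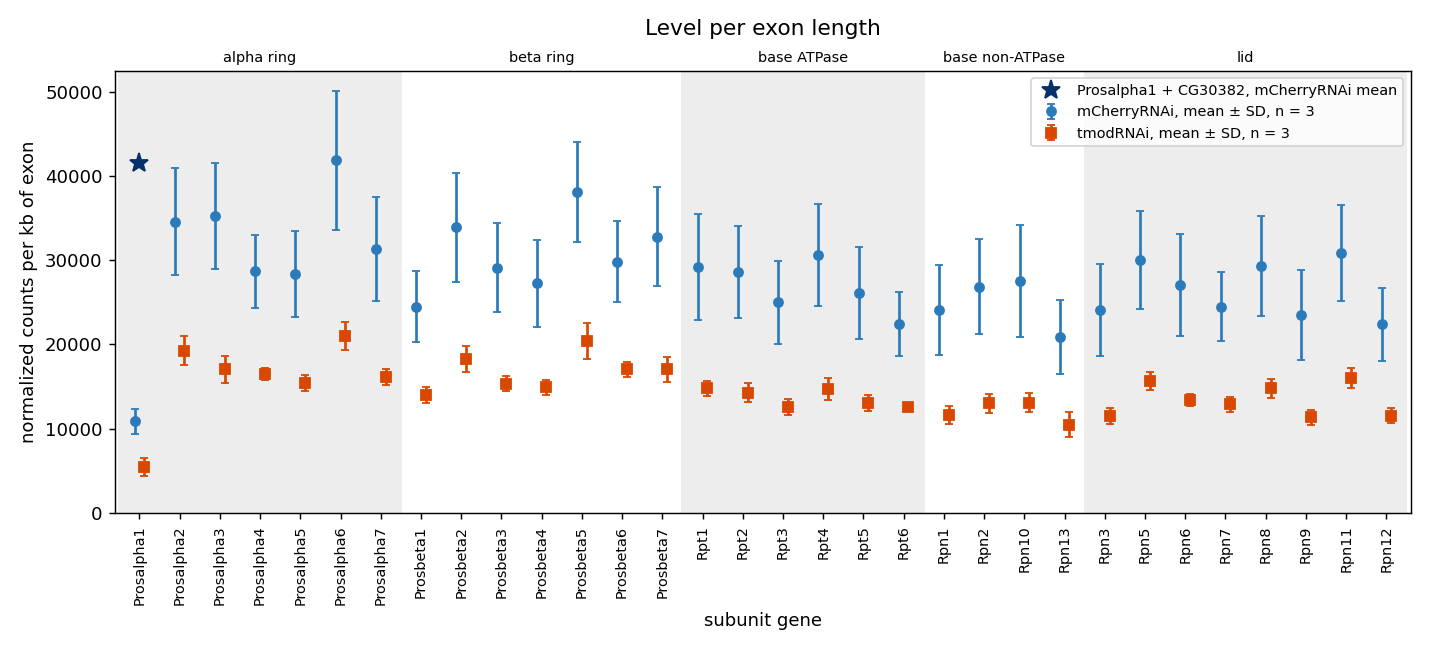
Normalized counts per kb of annotated exon for each plain-named subunit, as mean ± SD of 3 libraries, mCherryRNAi as circles and tmodRNAi as squares. The star is the control mean of Prosalpha1 and its neighbouring copy CG30382 added together, 41479 per kb, where Prosalpha1 alone is at 10845.

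Prosalpha1, the lowest subunit per length, has a second copy that the choice by symbol does not include. Prosalpha1 (FBgn0263121) spans bases 7827303 to 7828678 of 2R on the minus strand (BDGP6.54), and CG30382 (FBgn0050382), named Prosalpha1R in that annotation, spans bases 7830413 to 7831771 on the same strand, with 1734 bases between them. CG30382 was looked up after the values of Prosalpha1 were seen. It had 23983, 32539 and 32532 normalized counts in the controls, against 16978, 13818 and 14885 under tmodRNAi, more than Prosalpha1, with 8906, 11835 and 10786 in the controls, against 6524, 4561 and 4757 under tmodRNAi. CG30382 held 72.2% to 75.8% of the reads of the pair in each library, and it fell like the plain-named subunits (log2 difference -0.95 with an SE of 0.15, limma adjusted p = 0.031; -1.10 and 0.00054 without mCherryRNAi replicate 1), as did Prosalpha1 (-1.002 with an SE of 0.175). How reads were divided between the copies is not given in the sources used here, so their separate values are uncertain. Added together they had 40194 ± 6348 normalized counts in the controls, against 20508 ± 2669 in tmodRNAi (SD, n = 3 each).

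The paralogs were a different picture. No plain-named subunit was under 4561 normalized counts in any library, and 12 of the 15 suffixed paralogs had a mean under 10 normalized counts. The filter on low values left 3 paralogs in the test, Rpt6R, Rpt3R and Prosbeta2R2, and 0 of the 3 passed (limma, 23.8% of all tested genes called in either direction). Of the 3, 1, Rpt6R, had an unadjusted p under 0.05, as had 4901 of the 10969 tested genes (limma). By edgeR 0 of the 3 were called and by DESeq2 2, beside 2417 and 4364 of all tested genes.

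Rpt6R (FBgn0039788), a paralog of the ATPase Rpt6, was the most abundant of the 15. It had 230, 1687 and 1332 normalized counts in mCherryRNAi replicates 1 to 3, against 227, 245 and 172 in tmodRNAi replicates 1 to 3. Controls 2 and 3 stood far above the other 4 libraries, and mCherryRNAi replicate 1 lay within the range of the knockdown, so the groups overlapped. The groups differed by -1.91 on the log2 scale with an SE of 0.75 (limma adjusted p = 0.10). The value was -2.81 with an adjusted p of 0.0003 without mCherryRNAi replicate 1, it passed in DESeq2 (adjusted p = 0.0019) and not in edgeR (0.059), and it was 1.08 (adjusted p = 0.30) with the muscle covariate. Rpt6R equalled 0.907%, 4.97% and 3.79% of the normalized counts of Rpt6 in the controls and 1.25%, 1.43% and 0.981% in tmodRNAi.

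Rpt6R is also a close neighbour of the targeted gene. It spans bases 30582198 to 30583697 of 3R on the minus strand (BDGP6.54), and tmod spans bases 30532607 to 30578905 on the plus strand, so that 3292 bases separate them. CG9702 occupies most of this gap on the plus strand, ending 80 bases from Rpt6R, and had 22.6, 16.9 and 27.8 normalized counts in the controls, against 12.1, 192 and 259 under tmodRNAi (log2 difference 1.92, limma adjusted p = 0.24). On the other side CG9717, on the same strand as Rpt6R and with its end 322 bases from it, had 3142, 2101 and 2882 normalized counts in the controls, against 1936, 2259 and 2096 under tmodRNAi (log2 difference -0.35, limma adjusted p = 0.15). Across libraries, mCherryRNAi replicates 2 and 3 were high in both Rpt6R and tmod and the 3 tmodRNAi libraries were low in both, whereas mCherryRNAi replicate 1 was high in tmod, with 70528 normalized counts, and low in Rpt6R. No test of a relation between these genes was made. These neighbours were looked up after the position of Rpt6R was seen.

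Rpt3R, a paralog of Rpt3, had 76.5, 154 and 98.3 normalized counts in the controls, against 54.6, 83.1 and 59.5 under tmodRNAi, with overlapping groups (log2 difference -0.69 with an SE of 0.32, limma adjusted p = 0.15; -0.92 and 0.055 without mCherryRNAi replicate 1). Prosbeta2R2, a paralog of the catalytic subunit Prosbeta2, had 1.96, 4.83 and 4.28 normalized counts in the controls, against 14.1, 31.96 and 5.51 under tmodRNAi (log2 difference 1.72 with an SE of 0.73, limma adjusted p = 0.12; 1.42 and 0.20 without mCherryRNAi replicate 1). Its groups did not overlap, the controls lay near the level of 3 reads, which is between 2.41 and 3.31 normalized counts in these libraries, and tmodRNAi replicate 2 lay highest. It passed in DESeq2 (adjusted p = 0.046) but not in edgeR (0.080). The mean of Prosbeta2R2 over the 6 libraries, 10.4 normalized counts, reached the filter of 10 only through its tmodRNAi values. The filter thus fixed the direction of its difference.

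The remaining 12 paralogs were Prosalpha3T, Prosalpha4T1, Prosalpha4T2, Prosalpha6T, Prosbeta2R1, Prosbeta4R1, Prosbeta4R2, Prosbeta5R1, Prosbeta5R2, Rpn12R, Rpn13R and Rpt4R. Together they had 4, 9 and 6 reads in mCherryRNAi replicates 1 to 3, against 34, 149 and 27 reads in tmodRNAi replicates 1 to 3. Most of the reads thus came from tmodRNAi replicate 2, which had a read for each of the 12 genes and was the highest library for 11 of them. That library also had the most genes above 0 in the whole table, 14184, against 13064 to 13598 in the other libraries. How often other low genes were highest there was not counted. In the controls 7 of the 12 were at 0 in every library and 10 had at most 3 reads in every library. The highest single value was that of Rpt4R in tmodRNAi replicate 2, 31.96 normalized counts, whereas its other libraries had 0 in the 3 controls and 6.06 and 2.21 in tmodRNAi replicates 1 and 3. Rpn12R, a paralog of the lid subunit Rpn12, had 0 in the 3 controls and 6.06, 12.8 and 5.51 normalized counts in tmodRNAi, and Prosbeta5R1, a paralog of the catalytic Prosbeta5, had 0 in the 3 controls and 4.04, 22.4 and 4.41 in tmodRNAi.

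**Figure D5:**
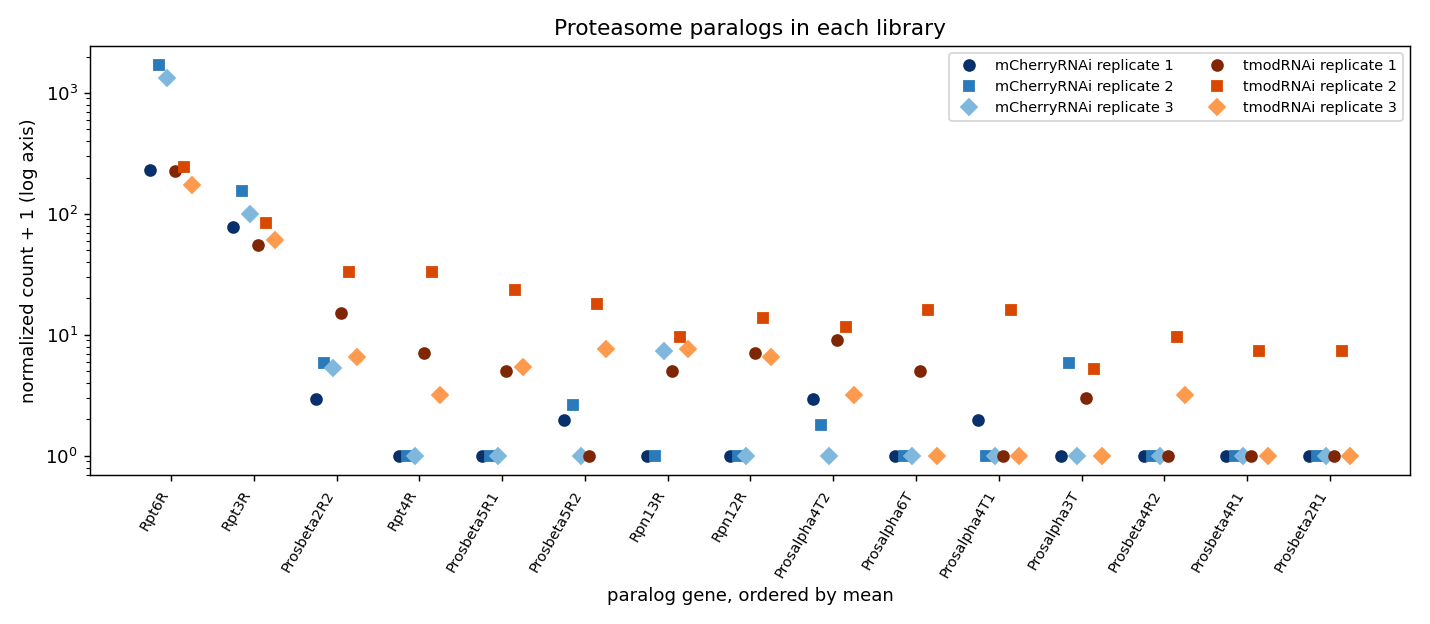
Normalized count + 1 of each of the 15 suffixed paralogs in each of the 6 libraries, on a log axis, ordered by mean. Points at 1 are libraries with no reads; tmodRNAi replicate 2 is the highest library for 11 of the 12 low paralogs, and Rpt6R is high in mCherryRNAi replicates 2 and 3.

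Markers of the male germline were also highest in tmodRNAi replicate 2. The 24 listed genes summed to 366, 386 and 361 normalized counts in mCherryRNAi replicates 1 to 3, against 493, 1300 and 576 in tmodRNAi replicates 1 to 3, and tmodRNAi replicate 2 was the highest library for 19 of them. This was not particular to the germline list, as the neuronal and fat body lists also summed highest in tmodRNAi replicate 2. The muscle, hemocyte and salivary gland lists summed highest in tmodRNAi replicate 3, and the epidermal list in mCherryRNAi replicate 1. Of the 24, between 8 and 10 were at 0 in each control, 3 were at 0 in tmodRNAi replicate 1 and 0 in the other tmodRNAi libraries. Of the 12 that could be tested, 4 passed as higher (limma, against 10.9% of all tested genes), namely dj, Mst98Ca, ocn and loopin-1, and 5 without mCherryRNAi replicate 1. Each of these 4 genes was under 10 normalized counts in every control and reached the filter only through tmodRNAi. The filter thus fixed their direction, and the count cannot be read against the share of all tested genes. The most abundant of the list by mean, mia, had 169, 176 and 176 normalized counts in the controls, against 182, 194 and 241 under tmodRNAi. loopin-1, with the highest single value of the list, had 0, 1.61 and 0 normalized counts in the controls, against 40.4, 263 and 34.2 under tmodRNAi. The labels do not give the sex of the pooled larvae, and the part of germline tissue in the paralogs' values was not tested.

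The other genes of the pathway were taken from a list of 22 that covers assembly, regulation, ubiquitin supply and associated enzymes. Of these, 14 passed as lower and 1 as higher (limma, against 12.9% and 10.9% of all tested genes), with a median log2 fold change of -0.56. Without mCherryRNAi replicate 1, 18 passed as lower, against 25.0% of all tested genes, and 3 as higher, against 2464 of the 10969 tested genes. Leaving out any other library gave 0 of the 22 (limma, 15 to 18 of them with an unadjusted p under 0.05), in fits where 0 to 59 of the 10969 tested genes passed. In those fits 3227 to 4078 of the 10969 tested genes had an unadjusted p under 0.05 (limma).

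Sem1, a small further component of the lid, fell from 13641, 20508 and 18579 normalized counts to 9905, 8648 and 9154 (log2 difference -0.91 with an SE of 0.16, limma adjusted p = 0.031). Usp14, a deubiquitinase that binds the proteasome, fell from 26076, 36500 and 37573 normalized counts to 19248, 17331 and 18160 (log2 difference -0.85 with an SE of 0.16, limma adjusted p = 0.031). Npl4, a cofactor of the p97 segregase that delivers substrates, fell from 10493, 10561 and 11336 to 8418, 7561 and 8258 normalized counts (log2 difference -0.42 with an SE of 0.08, limma adjusted p = 0.031, and 0.063 with quantile normalization). Npl4 had nearly equal values in the 3 controls. Without mCherryRNAi replicate 1 the log2 differences were -1.08 for Sem1, -1.02 for Usp14 and -0.44 for Npl4, and all 3 passed (limma, adjusted p = 0.00039, 0.00029 and 0.0054).

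REG was the 1 gene of the list that passed as higher. It encodes the 11S activator, which opens the core without ubiquitin or the 19S particle, and it had 4010, 3841 and 3809 normalized counts in the controls, against 4593, 4889 and 4990 under tmodRNAi (log2 difference 0.31 with an SE of 0.07, limma adjusted p = 0.034). Its groups did not overlap and mCherryRNAi replicate 1 did not stand apart, but it did not pass when values were scaled to the library total (adjusted p = 0.17) or in limma without the trend (0.057). Without mCherryRNAi replicate 1 it passed with a log2 difference of 0.33 (limma adjusted p = 0.0089). The transcription factor gene cnc, whose mammalian relative Nrf1 activates proteasome genes, was picked here after its values were seen. It fell from 59766, 92040 and 87325 normalized counts to 46871, 39358 and 34875 (log2 difference -0.97 with an SE of 0.21, limma adjusted p = 0.033), with mCherryRNAi replicate 1 again the lowest control. Without that library the log2 difference of cnc was -1.16 (limma adjusted p = 0.0012). Ubi-p5E, a polyubiquitin gene also picked after its values were seen, fell furthest in the list, from 90535, 290391 and 226119 normalized counts to 58493, 54584 and 55874 (log2 difference -1.69 with an SE of 0.43, limma adjusted p = 0.042). Its lowest control was again mCherryRNAi replicate 1, far under the other controls, and without it the log2 difference was -2.19 (limma adjusted p = 0.00019). The other polyubiquitin gene, Ubi-p63E, had overlapping groups, with 74593, 84498 and 92685 normalized counts in the controls, against 68574, 86017 and 86222 under tmodRNAi (limma adjusted p = 0.75, or 0.38 without mCherryRNAi replicate 1). Among the ubiquitin genes of the list, RpL40 and RpS27A went the other way and were higher in every tmodRNAi library than in every control. Their log2 differences were 0.25 and 0.28 (limma adjusted p = 0.11 and 0.12). Without mCherryRNAi replicate 1 both passed as higher (limma adjusted p = 0.016 and 0.021), as did 2464 of the 10969 tested genes.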

How the data were processed

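The table that the authors deposited gives, for each gene, its FlyBase identifier and symbol and the normalized counts of 6 libraries, a signal that is never negative. Per the submitters' processing notes, DESeq2 1.30.1 and the build dm6 were used; the aligner, the counting tool, the annotation and the strand setting are not given in the sources used here. Within a tolerance of 1e-06, 100% of the values in each column were whole multiples of 1 step, from which whole reads were recovered. In tmodRNAi replicate 1 that step was 1.01, close to 1, but its values were not whole numbers. Size factors recomputed from these reads times that step came to between 0.995 and 1.00.

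Genes averaging 10 or more normalized counts over the 6 libraries were tested on log2(normalized count + 1) with limma 3.58.1 (trended empirical Bayes) under R 4.3.3, with Benjamini-Hochberg adjustment over all 10969 tested genes and a threshold of 0.05. Fold changes are on that scale, which understates changes of low genes. An exact permutation test of 3 against 3 libraries cannot give a two-sided p under 0.1, so none was used. edgeR 4.0.16 and DESeq2 1.42.0 on the recovered reads were alternatives. Exon lengths and positions came from Ensembl BDGP6.54, which uses dm6 coordinates and held 17710 of the 17807 identifiers. Exons of 13 of the 32 plain-named subunits overlap a gene on the opposite strand, by at most 264 bases; the other 19 had a median log2 fold change of -0.97.

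The members, the lists and the rule for named genes were chosen with earlier results of these data known. The rule takes tmod, the catalytic subunits, the ubiquitin receptors Rpn1, Rpn10 and Rpn13, Rpn11, the largest and smallest change and the highest level per length in each ring, base or lid class, each paralog with a mean of at least 10, and up to 3 pathway genes per direction with the smallest adjusted p. The scripts were tested on simulated data.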

Additional observations from a re-analysis of the deposited data

How the results depend on the processing

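The median log2 fold changes of the 32 subunits, the core, the base and the lid kept their sign and moved by less than the spread between replicates under every alternative except the muscle covariate, where they were -0.37, -0.37, -0.36 and -0.37. Under both other pseudocounts, both other filters, the 3 other scalings, limma without the trend, edgeR and DESeq2, the 32 subunits passed. Over these 10 settings Npl4, REG, Rpt6R and Prosbeta2R2 were the genes named by the rule whose call changed. In limma, 0 of the 32, 0 core, 0 base and 0 lid subunits and 0 of the 22 pathway genes passed at an adjusted p under 0.01, with the muscle covariate, or with the replicate number as a block, although 32, 24 and 32 subunits had an unadjusted p under 0.05 in the respective fits. In the same order, 4901, 1302 and 3969 of the 10969 tested genes had an unadjusted p under 0.05 (limma). Leaving out each library in turn gave 0 to 32 subunits, 0 to 14 core, 0 to 10 base, 0 to 8 lid, 0 to 21 pathway genes, 0 to 1 paralogs and 0 to 5203 of all tested genes, and medians from -1.12 to -0.86, -1.04 to -0.81, -1.16 to -0.90 and -1.13 to -0.86 for the 32, core, base and lid. The pathway count was 6 in limma without the trend. Without a filter 2 of the 15 paralogs passed as higher (limma, Rpn12R, adjusted p = 0.032, and Prosbeta5R1, 0.038), as did 1121 of the 15593 genes tested there. Both had 0 reads in every control and between 4 and 21 reads in each tmodRNAi library. In DESeq2 Prosbeta2R2 passed as higher and Rpt6R as lower, beside 2063 genes called higher and 2301 called lower. The muscle covariate gave Rpt3R 0.16 and Rpt6R 1.08 on the log2 scale, with signs opposite to the fits without it. Of all tested genes 2613 passed, and 954 in limma without the trend, 4364 in DESeq2, 2 at 0.01, 5 with the muscle covariate and 0 with the block (limma, 3969 with an unadjusted p under 0.05); 45.7% of the calls were higher, and 36.1% under median centring. Scaling to the library total moved the median of all genes from 0.02 to -0.11 and that of the 32 subunits to -1.08. The cause of these changes was not tested. Same-numbered libraries did not deviate together (r = -0.06, 0.02 and -0.02 for replicates 1 to 3), so the block only tests a shared number: its adjusted p for the 32 was 0.096. Depth limits the 12 low paralogs, Prosbeta2R2 in the controls, and the male germline markers at or near 0.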
